A study of Homo sapiens with 8 samples.

Results

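The casein kinase 1 family was examined at the RNA level in Hct116 cells, an established human colorectal carcinoma line. Cells were given 30 μM lenalidomide, or its solvent DMSO alone, for 16 h. Members were taken by gene symbol, as the 7 protein-coding paralogs CSNK1A1, CSNK1A1L, CSNK1D, CSNK1E, CSNK1G1, CSNK1G2 and CSNK1G3, out of 23459 genes in the count table. Each treatment had 4 replicate libraries of total RNA from unmodified cells of a single line, and every culture contained the solvent. Per the paper, cells were moved at drug addition into medium with a different amino acid isotope label. The harvested cells were then split for proteomics and RNA. Some replicates of that design were label swaps, with the order of the isotopes reversed, and the sample labels do not say which. The study used these RNA samples to ask whether altered transcript levels accompany the changes in protein turnover that it measured by mass spectrometry. For this family the question was narrower. CSNK1A1 protein is a lenalidomide-dependent substrate of the ubiquitin ligase CRL4-CRBN, and it was asked whether the RNA of CSNK1A1 or of any paralog was higher or lower with the drug. In bulk RNA, a change in the number of cells that express a gene and a change in RNA per cell cannot be told apart.

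Casein kinase 1 enzymes are monomeric serine/threonine kinases that often act on sites primed by an earlier phosphorylation. The alpha isoform, encoded by CSNK1A1, makes the priming phosphorylation on beta-catenin within the destruction complex and binds the regulators MDM2 and MDM4. The delta and epsilon isoforms phosphorylate Period proteins in the circadian clock and Dishevelled proteins in Wnt signalling. The gamma isoforms are held at membranes by lipid modification and phosphorylate the Wnt co-receptor LRP6. Lenalidomide binds the ligase subunit CRBN, and the compound together with CRBN holds CSNK1A1 by a beta-hairpin loop in the N-terminal lobe of the kinase, in which a glycine is essential.

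The coding sequences around that loop are shown because they separate the paralogs at the contact site of the drug-bound ligase. Each stretch below holds 60 bases of a reference coding sequence, read 5′ to 3′ on the coding strand from the GENCODE transcripts lifted to GRCh37, and the capitals mark the codon that aligned with the loop glycine of CSNK1A1.
CSNK1A1: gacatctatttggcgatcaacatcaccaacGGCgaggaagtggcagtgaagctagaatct
CSNK1A1L: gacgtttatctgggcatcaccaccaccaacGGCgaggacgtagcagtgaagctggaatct
CSNK1D: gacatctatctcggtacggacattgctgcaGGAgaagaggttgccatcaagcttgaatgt
CSNK1E: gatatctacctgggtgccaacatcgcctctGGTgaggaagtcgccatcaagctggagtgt
CSNK1G1: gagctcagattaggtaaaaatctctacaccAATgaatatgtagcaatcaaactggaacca
CSNK1G2: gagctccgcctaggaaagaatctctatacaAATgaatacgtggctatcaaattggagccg
CSNK1G3: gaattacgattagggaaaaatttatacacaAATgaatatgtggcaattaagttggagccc

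The aligned codon reads glycine in CSNK1A1, CSNK1A1L, CSNK1D and CSNK1E, and asparagine in the 3 gamma genes. In CSNK1A1 it is codon 40, in exon 1 of 10 (chromosome 5, GRCh37, 148930408 to 148930410, minus strand). In CSNK1A1L, a gene of 1 exon, it is also codon 40, on chromosome 13 from 37679274 to 37679276 on the minus strand. In CSNK1D and CSNK1E it is codon 32, in exon 2 of 9 on chromosome 17 (80223653 to 80223655, minus strand) and in exon 3 of 11 on chromosome 22 (38699234 to 38699236, minus strand). In CSNK1G1 it is codon 67, in exon 3 of 12 on chromosome 15 (64551421 to 64551423, minus strand). In CSNK1G2 it is codon 69, in exon 3 of 12 on chromosome 19 (1978321 to 1978323, plus strand), and in CSNK1G3 codon 66, in exon 3 of 14 on chromosome 5 (122888818 to 122888820, plus strand).

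Over the 60 bases, CSNK1A1L differed from CSNK1A1 at 10, CSNK1E at 19, CSNK1D at 22 and the gamma genes at 28 to 33. Over the aligned part of the translated proteins, identity to CSNK1A1 was 91.0% for CSNK1A1L and 75.5% for CSNK1E, and CSNK1D shared 225 of 300 residues. It was between 54.7% and 56.6% for the gamma genes. The order of relatedness was thus alpha-like, then delta and epsilon, then gamma.

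Libraries held between 28218471 and 37473413 counts, with the 4 lenalidomide libraries smaller than any of the DMSO set. Values are given as CPM, gene counts scaled by library total and TMM factor, and as CPM per kb where genes are compared with each other. Markers of colorectal epithelium were present, from 8.47 CPM for CDX2 to 845.3 CPM for KRT19 as DMSO means, and 0 of 6 passed the test. Of 6 markers of other cell types, only the collagen gene COL1A1 was high enough to be tested, at 2.98 CPM under DMSO and 2.97 CPM under lenalidomide. The other five, PTPRC, CD3E, COL1A2, PECAM1 and ALB, had means of at most 0.158 CPM in either treatment. With edgeR's quasi-likelihood test and Benjamini-Hochberg adjustment, 2 of 13925 genes passed an adjusted p of 0.05, a background of 0.0144%. All 4 lenalidomide CPM values lay above all 4 DMSO values in 1.24% of the genes tested, and below all of them in 0.84%.

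None of the 7 members passed the test (lowest adjusted p = 0.9989 by edgeR's quasi-likelihood test), and 0 of 7 had an unadjusted p under 0.05, where 4.18% of all genes tested did. DESeq2 also called 0 of 7. In every member the 4 lenalidomide values overlapped the 4 DMSO values. All 7 were high enough to pass the filter on low counts, with between 92 and 14059 counts per library. The fitted log2 fold change was positive for 4 members and negative for 3 (CSNK1A1 turned negative with RLE scaling), with a median of 0.0036, against 0.0025 over all genes tested.

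**Figure D1:**
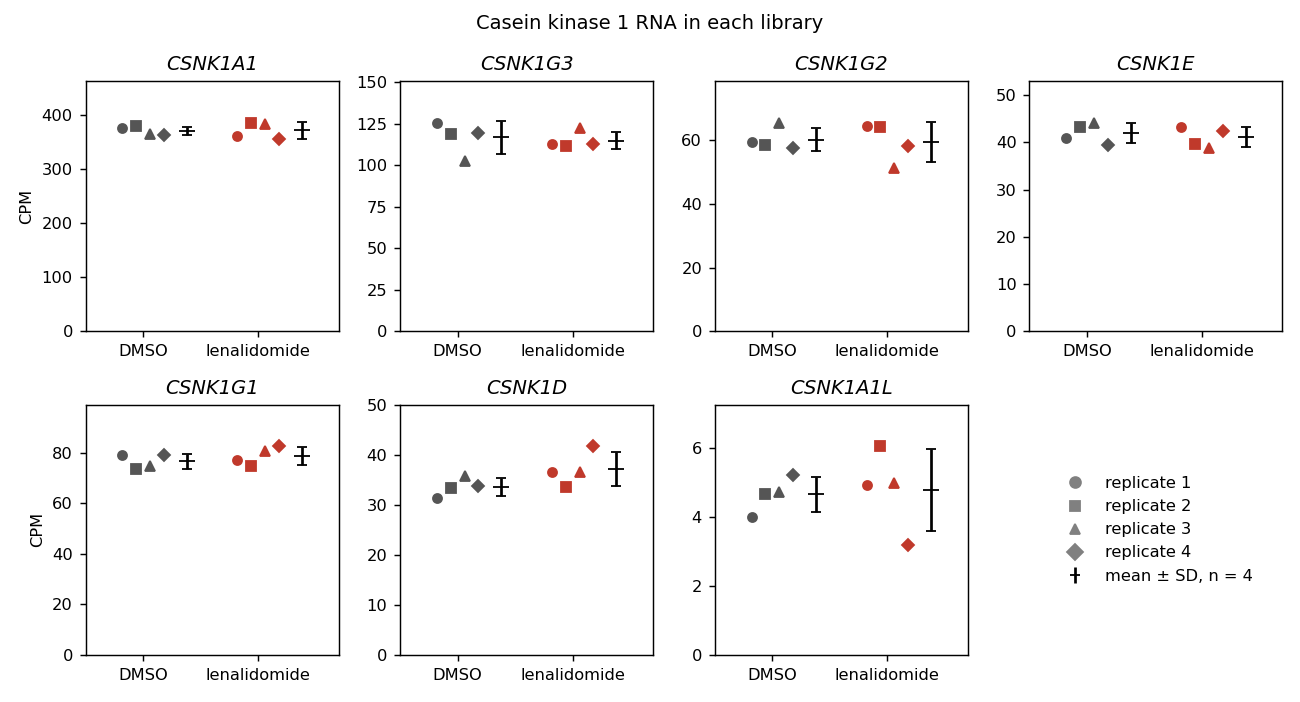
RNA of the 7 casein kinase 1 genes in CPM, each on its own axis from 0, in 4 DMSO (grey) and 4 lenalidomide (red) libraries, with marker shapes for replicate numbers and the mean ± SD in black. In each gene the values of the treatments overlap, and CSNK1A1 is near 372 CPM in both.

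CSNK1A1 (Entrez gene 1452; chromosome 5 of GRCh37, 148872545 to 148931034, minus strand), whose protein is the drug-induced substrate, was by far the most abundant member. It had 376.2, 379.5, 366.1 and 364.2 CPM in DMSO replicates 1 to 4. With lenalidomide it had 362.7, 386.4, 384.4 and 356.0 CPM. The lenalidomide libraries held both the lowest and the highest values, replicates 4 and 2, so the DMSO range lay inside theirs. Means were 371.5 ± 7.52 CPM under DMSO and 372.4 ± 15.3 CPM under lenalidomide (SD, n = 4 each). The log2 fold change was 0.0036 (standard error 0.052), and its sign depended on the scaling, since it was -0.00032 with RLE scaling. The 95% confidence interval ran from -0.11 to 0.12, which corresponds to a change between -7.22% and 8.32%.

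Counts of CSNK1A1 could in principle include reads of its close copies, and theirs could include reads of CSNK1A1. Over the aligned bases, CSNK1A1L was 91.75% and CSNK1A1P1 92.76% identical to the CSNK1A1 coding sequence. Of 2357 distinct 50-base words in the CSNK1A1L transcript, 28 (1.19%) also occur in CSNK1A1 transcripts, and of 2670 in the pseudogene CSNK1A1P1, 14 (0.524%) do. These words were compared as exact matches, and the read length was not given in the sources used here. No 50-base word was shared between any other pair of the 8 genes. GENCODE also lists an unnamed gene whose exons overlap those of CSNK1A1 on the same strand, so its reads cannot be told apart where they overlap.

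CSNK1A1L (Entrez gene 122011; chromosome 13, 37677396 to 37679801, minus strand), the intronless relative of CSNK1A1, was the least abundant member. DMSO replicates 1 to 4 had 4.01, 4.69, 4.73 and 5.23 CPM, and lenalidomide replicates 4.93, 6.06, 4.98 and 3.19 CPM. Lenalidomide replicate 2 was the highest and replicate 4 the lowest of all 8 libraries. Means were 4.66 ± 0.498 CPM under DMSO and 4.79 ± 1.19 CPM under lenalidomide (SD, n = 4 each). The log2 fold change of 0.044 had the widest interval of the family, from -0.29 to 0.38, so that changes from -18.4% to 30.4% lay inside it. Counts of CSNK1A1L were 1.27% of those of CSNK1A1 on average over the 8 libraries, a share close to the 1.41% of CSNK1A1P1. At such small shares, a few misplaced CSNK1A1 reads would weigh on the level and fold change of either gene. How much of either count came from such reads was not tested. The pseudogene CSNK1A1P1 (Entrez gene 161635) had 5.41 ± 0.595 CPM under DMSO and 5.05 ± 0.573 CPM under lenalidomide (SD, n = 4 each), and a log2 fold change of -0.10 (95% confidence interval -0.34 to 0.14). That value was -0.043 without DMSO replicate 1 and -0.18 without lenalidomide replicate 3. CSNK1G2-AS1, the remaining row of the table with a casein kinase 1 symbol, had 4 counts in all, in replicate 4 of each treatment, and was not tested.

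CSNK1D (Entrez gene 1453; chromosome 17, 80196899 to 80231576, minus strand), the delta isoform and a clock kinase, had the largest fitted change of the family. DMSO replicates 1 to 4 had 31.5, 33.5, 35.9 and 33.8 CPM, and lenalidomide replicates 36.7, 33.6, 36.7 and 41.8 CPM. All lenalidomide values but that of replicate 2 were above every DMSO value. Means were 33.7 ± 1.80 CPM under DMSO and 37.2 ± 3.38 CPM under lenalidomide (SD, n = 4 each). The log2 fold change was 0.14 (standard error 0.069, 95% confidence interval -0.0056 to 0.29), and edgeR's quasi-likelihood test gave an unadjusted p of 0.0580 (adjusted p = 0.9989). A two-sided exact permutation test gave p = 0.0857, where 0.0286 is the smallest that 4 libraries against 4 allow. A lower unadjusted p than that of CSNK1D was found for 665 of the genes tested, or 4.78%.

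The highest CSNK1D value came from lenalidomide replicate 4, the library with the smallest total (28218471 counts) and the most genes with counts (19568, against 16953 to 18476 in the others). Without that library the log2 fold change of CSNK1D was 0.084, and without lenalidomide replicate 2 it was 0.19. The part of library depth in this value was not tested. Lenalidomide replicate 4 also had the highest value of the 8 libraries for CSNK1G1, and for TTBK2, AXIN2 and RNF43 below. It had the lowest for CSNK1A1, CSNK1A1L and VRK1, among others. Exons of CSNK1D overlap those of SLC16A3, a lactate transporter gene on the opposite strand, and whether the counts used strand is not stated. SLC16A3, named after its values were seen, averaged 83.0 CPM under DMSO and 84.6 CPM under lenalidomide, and its log2 fold change was 0.028 (95% confidence interval -0.11 to 0.17).

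CSNK1E (Entrez gene 1454; chromosome 22, 38686697 to 38714089, minus strand), the epsilon isoform and the closest relative of delta, likewise did not pass the test. It had 41.0, 43.3, 44.2 and 39.5 CPM in DMSO replicates 1 to 4 and 43.3, 39.7, 38.9 and 42.4 CPM in lenalidomide replicates 1 to 4. Both treatments spanned nearly the same range. Means were 42.0 ± 2.13 and 41.1 ± 2.11 CPM (SD, n = 4 each). The fitted log2 fold change was -0.032 (standard error 0.058, 95% confidence interval -0.16 to 0.094). GENCODE gives a readthrough gene, TPTEP2-CSNK1E, that shares exons with CSNK1E, and the counts were not split between them here. Summed per kb, delta and epsilon RNA was 18.1 ± 0.845 CPM per kb under DMSO and 18.4 ± 1.04 CPM per kb under lenalidomide (SD, n = 4 each).

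**Figure D2:**
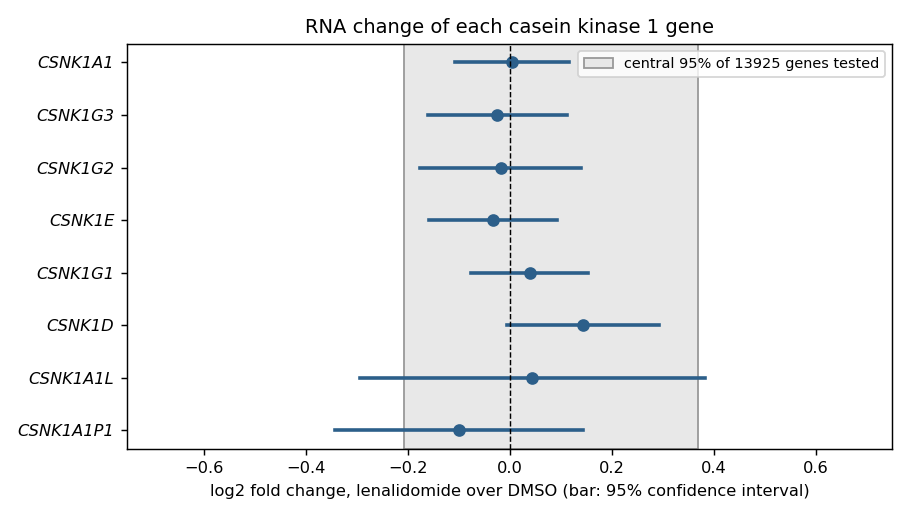
Log2 fold change of lenalidomide over DMSO for the 7 members and the pseudogene CSNK1A1P1, with the 95% confidence interval from edgeR's quasi-likelihood fit as a bar and the central 95% of all 13925 genes tested in grey. Every interval includes 0, and CSNK1D, at 0.14, has its lower end at -0.0056.

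The 3 gamma genes carry asparagine at the aligned loop position and encode the membrane-bound isoforms. CSNK1G3 (Entrez gene 1456; chromosome 5, 122847871 to 122952743, plus strand), the most abundant of them, had 125.5, 118.8, 102.8 and 119.5 CPM in DMSO replicates 1 to 4. Lenalidomide replicates had 112.9, 111.4, 122.2 and 112.5 CPM. DMSO replicate 3 was the lowest library and lenalidomide replicate 3 stood above its own group, so replicate 3 lay on opposite sides in the 2 treatments. The means were 116.7 CPM under DMSO and 114.7 CPM under lenalidomide, with a coefficient of variation of 8.36% and 4.36%. For CSNK1G3 the log2 fold change was -0.024 (standard error 0.064, 95% confidence interval -0.16 to 0.11).

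CSNK1G1 (Entrez gene 53944; chromosome 15, 64457724 to 64648372, minus strand) had 79.2, 73.5, 74.7 and 79.3 CPM under DMSO and 77.2, 74.6, 80.8 and 82.6 CPM under lenalidomide, in replicates 1 to 4. Lenalidomide replicates 3 and 4 were above every DMSO value and the others were within the DMSO range. With means of 76.7 ± 3.02 and 78.8 ± 3.56 CPM (SD, n = 4 each), CSNK1G1 had a fitted log2 fold change of 0.039 (standard error 0.053, 95% confidence interval -0.075 to 0.15). As with CSNK1A1, GENCODE lists an unnamed gene whose exons overlap those of CSNK1G1 on the same strand. CSNK1G2 (Entrez gene 1455; chromosome 19, 1941171 to 1981337, plus strand) had 59.4, 58.4, 65.5 and 57.7 CPM under DMSO and 64.4, 64.3, 51.2 and 58.1 CPM under lenalidomide. Replicate 3 was the highest DMSO library and the lowest lenalidomide library, the reverse of CSNK1G3. Means were 60.3 ± 3.59 and 59.5 ± 6.26 CPM (SD, n = 4 each). The log2 fold change of CSNK1G2 was -0.018 (standard error 0.074, 95% confidence interval -0.18 to 0.14). Without lenalidomide replicate 3 it was 0.048.

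Per kb of exons, the gamma genes together had 48.2 ± 1.54 under DMSO and 47.9 ± 0.508 under lenalidomide (CPM per kb, SD, n = 4 each). For the 6 members other than CSNK1A1 the summed level was 69.3, 68.3, 67.5 and 68.0 CPM per kb in DMSO replicates 1 to 4. It was 69.6, 67.9, 67.3 and 68.3 CPM per kb in lenalidomide replicates 1 to 4. The lenalidomide values fell on both sides of the DMSO range, and the ratio of the means was 0.9999. The means were 68.3 ± 0.734 and 68.3 ± 0.979 CPM per kb (SD, n = 4 each).

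The intervals bound how far each paralog's RNA could have moved. Upper 95% limits were an increase of 6.70% for CSNK1E, 8.10% for CSNK1G3, 10.2% for CSNK1G2, 11.2% for CSNK1G1, 22.4% for CSNK1D and 30.4% for CSNK1A1L. Lower limits ran from -0.386% for CSNK1D to -18.4% for CSNK1A1L. CSNK1A1L, with the widest interval, had 92 to 201 counts per library, and the other members had at least 1115. The intervals include the spread between replicates. The labels do not say whether replicates came from separate cultures. In a figure legend the paper calls both the RNA replicates and those of the parallel proteomics biological. Its methods call the proteomics replicates technical. The p-values measure only the spread between these libraries, which may be in part technical.

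**Figure D3:**
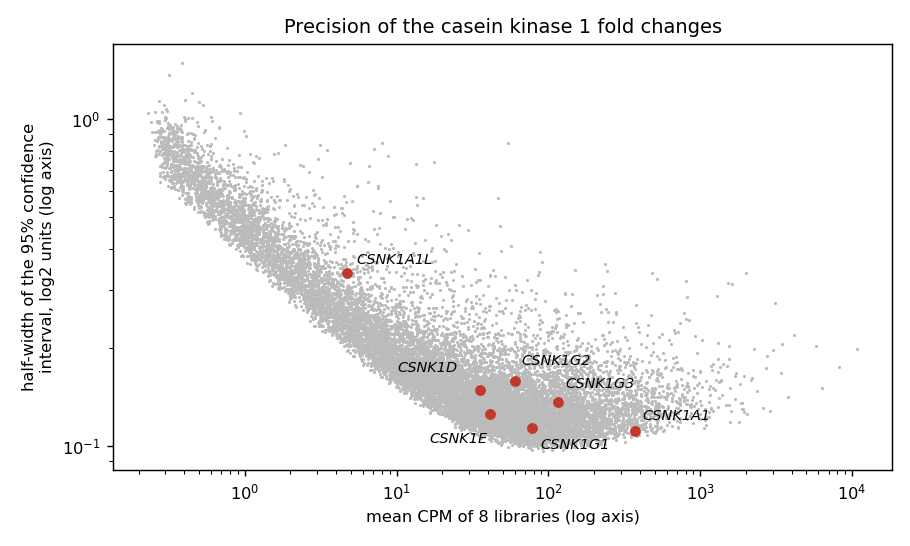
Half-width of each 95% confidence interval (log2 units) against the mean CPM over 8 libraries, both on log axes, for all genes tested (grey) and the 7 members (red). The members other than CSNK1A1L lie between 0.11 and 0.16 log2 units, and CSNK1A1L lies at 0.34.

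Ratios of counts within a library need no scaling and were formed against CSNK1A1. CSNK1D had 8.38, 8.84, 9.81 and 9.28 counts per 100 CSNK1A1 counts in DMSO replicates 1 to 4, and 10.1, 8.70, 9.56 and 11.7 in lenalidomide replicates. Lenalidomide replicates 1 and 4 were above all DMSO libraries. CSNK1G3 had between 28.1 and 33.4 counts per 100 of CSNK1A1 under DMSO and between 28.8 and 31.8 under lenalidomide. For all 6 paralogs the ratios to CSNK1A1 overlapped between treatments, and the ratio of the treatment means was between 0.978 for CSNK1E and 1.11 for CSNK1D.

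Compared per kb of exons, the order of levels was CSNK1A1, CSNK1G3, CSNK1G2, CSNK1E, CSNK1G1, CSNK1D and CSNK1A1L, and each library gave this same order. Means over the 8 libraries were 132.7, 24.4, 15.3, 12.4, 8.31, 5.85 and 1.97 CPM per kb. CSNK1A1 exceeded CSNK1G3, the next in order, by 5.44-fold. The 8 values of adjacent genes were apart in 5 of the 6 neighbouring pairs. In the sixth pair the lowest CSNK1G2 value, 13.1, was below the highest CSNK1E value, 13.2 CPM per kb, although CSNK1G2 was higher in 8 of 8 libraries. Among all genes tested, the mean level per kb of CSNK1A1 was at percentile 96.9, CSNK1G3 at 79.7, CSNK1D at 48.1 and CSNK1A1L at 28.1. Widths are those of the authors' gene models, 2802 bases for CSNK1A1 and 9361 for CSNK1G1, and without division by width CSNK1G1 came directly after CSNK1G3. GENCODE exons cover 8505 bases for CSNK1A1, and 10993 for CSNK1D and 7097 for CSNK1E, against 6060 and 3345 here. For CSNK1G3 and CSNK1G1 they cover 4926 and 9618, close to the widths used. The order, the fold between genes and the shares per kb therefore depend on the gene models, and GENCODE widths were not tried.

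**Figure D4:**
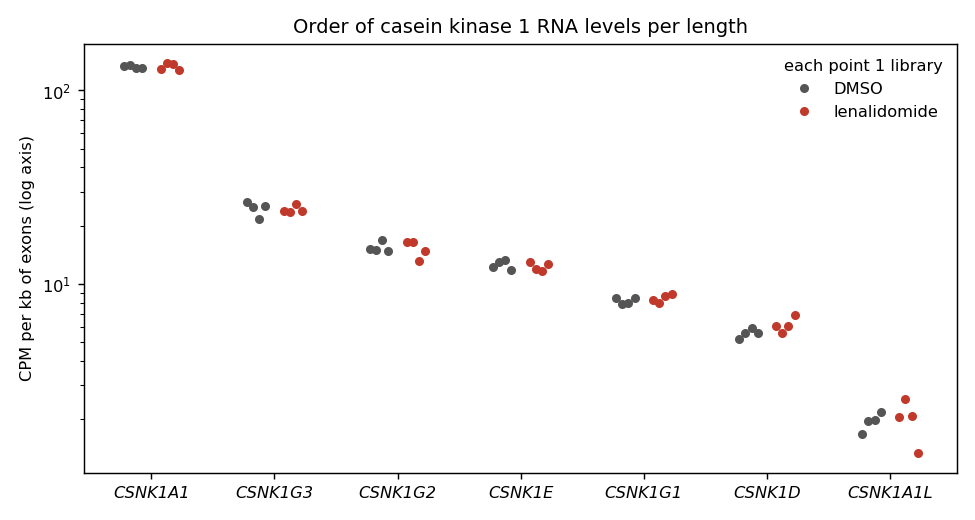
Level of each member in CPM per kb of exons on a log axis, 1 point per library, DMSO in grey and lenalidomide in red, in descending order of the mean. CSNK1A1 stands 5.44-fold above CSNK1G3, and the points of CSNK1G2 and CSNK1E touch at 13.1 and 13.2.

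As a share of the summed family level per kb, CSNK1A1 made up 66.0% ± 0.348 under DMSO and 66.0% ± 1.17 under lenalidomide (SD, n = 4 each). Its share in single libraries ran from 65.6% to 66.5% under DMSO and from 65.0% to 67.1% under lenalidomide. CSNK1G3 followed with 12.3% ± 0.921 under DMSO, and lay between 11.4% and 12.6% under lenalidomide, and CSNK1D had 2.77% ± 0.182 and 3.06% ± 0.348 (SD, n = 4 each).

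The genes whose levels followed CSNK1A1 most closely over the 8 libraries were THAP12, PRPS2 and RPL37, by the root mean square difference of centred log2 CPM among 2434 genes of at least 100 CPM. Their differences were 0.014, 0.018 and 0.019, where the median gene had 0.077. CSNK1A1 itself had a root mean square deviation of 0.041 from its own mean, which is also the difference that a gene with no variation would have. All 3 differences were smaller, but these genes were picked as the nearest of 2434. How small the nearest differences would be by chance was not tested. Of the family, only CSNK1G3 also reached 100 CPM, with a difference of 0.081, and 54.0% of the genes were closer.

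Genes around casein kinase 1 were examined in 9 lists with 71 genes, of which 62 were tested. None passed an adjusted p of 0.05 (lowest 0.854 by edgeR's quasi-likelihood test), and 0 did with DESeq2. At an unadjusted p under 0.05, 4 of the 62 were higher and 1 lower, against 3.26% and 0.919% of all genes tested. The treatments did not overlap in 3 of the 62 genes, which were higher under lenalidomide, and 0 genes were lower without overlap, against 1.24% and 0.84% of all genes tested. The median log2 fold change over the 62 genes was 0.0022.

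Among the closest other kinases of the CK1 group, VRK1, a chromatin kinase, was highest per kb, at 72.2 CPM per kb, with a log2 fold change of -0.056 (95% confidence interval -0.20 to 0.092). TTBK2, a tau-tubulin kinase needed for cilia, had 14.2, 14.9, 14.6 and 16.0 CPM under DMSO and 16.2, 16.0, 16.7 and 18.6 CPM under lenalidomide. Its treatments were just apart, with a log2 fold change of 0.18 (adjusted p = 0.9989 by edgeR's quasi-likelihood test). Without lenalidomide replicate 4, which had the highest TTBK2 value, the log2 fold change was 0.13. VRK2 and VRK3 were at 0.0058 and 0.0027 on the log2 scale. Casein kinase 2, a distinct kinase outside the CK1 group despite the similar name, had 0 of 4 subunit genes called. Of these, CSNK2A3 and CSNK2A1 had 107.3 and 100.2 CPM per kb and log2 fold changes of 0.012 and -0.030, but the former is a near-identical intronless copy of the latter, so the split of reads between them is uncertain. CSNK2A2 was at 0.22 (95% confidence interval -0.020 to 0.45) and CSNK2B at -0.059, both named after their values were seen.

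FAM83 proteins anchor casein kinase 1 isoforms at particular sites in the cell. Of 8 FAM83 genes, 5 were tested and 0 called. FAM83H, which ties casein kinase 1 to keratin filaments, had 73.1, 71.8, 70.2 and 69.9 CPM in DMSO replicates 1 to 4 and 84.2, 75.2, 89.8 and 87.5 CPM in lenalidomide replicates 1 to 4. The treatments did not overlap, lenalidomide being higher, in replicate 2 by the smallest margin. Its log2 fold change was 0.24 (standard error 0.059, 95% confidence interval 0.11 to 0.37), and edgeR's quasi-likelihood test gave an unadjusted p of 0.00113 (adjusted p = 0.854). FAM83D, which recruits CSNK1A1 to the mitotic spindle and had the highest level per kb of the scaffolds, was at -0.021 (95% confidence interval -0.14 to 0.098).

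In the Wnt relay, where casein kinase 1 acts on beta-catenin, LRP6 and Dishevelled, 0 of 16 genes were called and the median log2 fold change was -0.017. The most abundant, DDX3X, a helicase that stimulates CSNK1E, had 142.9 CPM per kb and a log2 fold change of -0.047. CTNNB1, encoding beta-catenin itself, was at -0.030 (95% confidence interval -0.14 to 0.084). Of 12 beta-catenin target genes, 9 were tested and 0 called. CCND1, encoding cyclin D1, was the highest per kb, with a log2 fold change of 0.011 (95% confidence interval -0.14 to 0.16).

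Among these targets AXIN2 and RNF43, feedback inhibitors of Wnt signalling, are given because their unadjusted p was under 0.05, a choice made after their values were seen. AXIN2 had 24.3, 22.7, 20.4 and 20.5 CPM under DMSO and 25.2, 22.7, 24.6 and 27.5 CPM under lenalidomide, and a log2 fold change of 0.19 (95% confidence interval 0.022 to 0.35). RNF43 had 104.8, 109.5, 100.9 and 112.8 CPM under DMSO and 129.5, 111.1, 114.3 and 136.0 CPM under lenalidomide, and a log2 fold change of 0.20 (95% confidence interval 0.051 to 0.34). In both genes the treatments overlapped, and edgeR's quasi-likelihood test gave both an adjusted p of 0.9989. NKD1, another feedback inhibitor, was at 0.045 (95% confidence interval -0.12 to 0.21).

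In a list of 10 genes around MDM2 and MDM4, 0 were called. MDM2, an E3 ubiquitin ligase, and CDKN1A, a cyclin-dependent kinase inhibitor, were at 0.026 and -0.015 on the log2 scale. Of 6 genes in the Period and cryptochrome list, 0 were called, and the median log2 fold change was -0.032. In the Hedgehog list 4 of 6 genes were tested and 0 called, and SUFU, an inhibitor of GLI factors, was at 0.064. Of the 5 CRL4-CRBN ligase genes 0 were called, with DDB1 at -0.034, CRBN at -0.035 and RBX1 at -0.19. RBX1, named after its values were seen, had 22.3, 24.4, 20.5 and 25.5 CPM under DMSO and 21.2, 19.7, 21.5 and 19.1 CPM under lenalidomide, which overlapped.

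**Figure D5:**
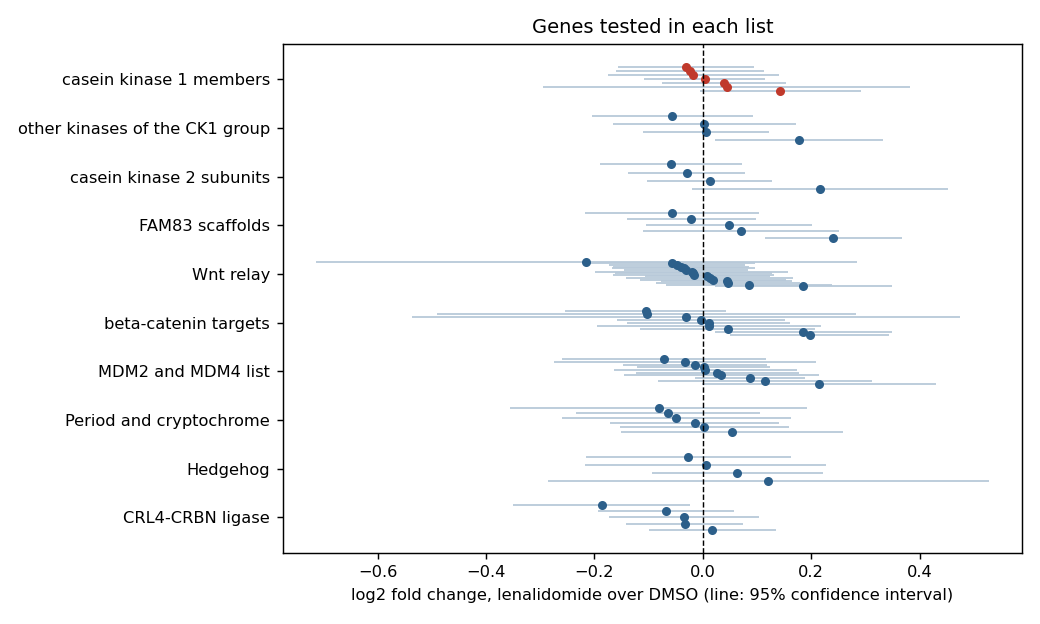
Log2 fold change of lenalidomide over DMSO for the genes tested in each list, with 95% confidence intervals as lines and the 7 casein kinase 1 members in red. AXIN2 is in 2 lists, and FAM83H, at 0.24, is the highest point shown while none of the points passed the test.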

How the data were processed

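RNA of 8 Hct116 libraries was counted by the authors, who deposited raw read counts per gene (1 column per library) with the exonic width in bases. Per the paper's methods, reads from ScriptSeq v2 libraries were aligned to hg19 and counted on UCSC known genes with QuasR at default parameters. The submitters' processing notes name bcl2fastq 2.17. Aligner versions, read length and strand use were not given in the sources used here. All 23459 rows carry a gene identifier and entered the library totals and the filter, including 70 that lack a symbol (0.0223% of all counts). The number of sample columns left out was 0.

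Counts were analysed in R 4.3.3. Genes were kept by filterByExpr of edgeR 4.0.16 (minimum count 10, minimum total 15), leaving 13925, scaled by TMM (factors 0.971 to 1.02) and compared by glmQLFit and glmQLFTest over all genes, without a block, with Benjamini-Hochberg adjustment and a threshold of 0.05. Standard errors and 95% intervals came from the coefficient and its F statistic. Single genes also had a two-sided exact permutation test of CPM. CPM per kb divides CPM by exonic width. Log2 CPM used a prior count of 2. Alternatives were RLE scaling, DESeq2 1.42.0, both other filters, a replicate block and leaving out each library. Within a treatment, libraries were further apart than counting noise allows (chi-square per degree of freedom of at least 5.55 over 12 pairs), so none was a copy. Positions and transcripts came from GENCODE 44 lifted to GRCh37, the build of the alignment, and proteins were aligned with Biopython 1.88.

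Members and gene lists were chosen with earlier results of these data known. Named genes were the members, other rows with a casein kinase 1 symbol, the gene of each list with the highest level per kb, those that passed or whose treatments did not overlap, and the 3 nearest in pattern to CSNK1A1. Others were named for comparison after their values were seen. List counts include genes that are not reported here.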

Additional observations from a re-analysis of the deposited data

Results flagged for a closer look

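Of 44 groups of 4 values examined, for the 7 members and 15 genes named beside them, a single value (1 group) stood well away from its group, and about 2.2 such groups arise by chance. It was that of CSNK1G3 in lenalidomide replicate 3, with 122.2 CPM where the others had 111.4 to 112.9 CPM. The value lay inside the DMSO range of 102.8 to 125.5 CPM, and its cause was not tested.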

How the results depend on the processing

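The number of casein kinase 1 genes past the threshold was 0 under all 13 alternatives, and so was that of the 62 list genes. Of 91 values for the 7 members, 79 kept direction and side of the threshold and 12 changed sign. CSNK1A1 was at -0.00032 with RLE scaling, -0.00027 with DESeq2 and -0.0047 with no filter beyond 1 count. With each library left out in turn, CSNK1A1 lay between -0.015 and 0.025 on the log2 scale, and the ranges were from -0.090 to 0.19 for CSNK1A1L, from 0.084 to 0.19 for CSNK1D, from -0.058 to 0.048 for CSNK1G2 and from -0.084 to 0.0093 for CSNK1G3, and, with the sign kept, from -0.060 to -0.0073 for CSNK1E, from 0.016 to 0.064 for CSNK1G1 and from -0.18 to -0.043 for the pseudogene CSNK1A1P1. They ran from -0.10 to 0.014 for VRK1, from -0.016 to 0.041 for CSNK2A3, from -0.032 to 0.065 for CCND1, and from -0.013 to 0.081 for MDM2.

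Over all genes the count past the threshold was 2, and 9 with DESeq2, 4 with no filter beyond 1 count, 6 with the replicate block and from 1 to 2 with a library left out. The cause was not tested. With the replicate block CSNK1D was at 0.14 (adjusted p = 0.925 by edgeR's quasi-likelihood test) and no member's call changed. Deviations of same-numbered libraries correlated at 0.028, -0.024, 0.031 and 0.27, and those of differently numbered libraries at -0.29 to 0.17. Of the same-numbered values only the last, 0.27, lay above that range. The numbers were not taken as pairs in the main fit.

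Without division by width the share of the family level was 52.6% for CSNK1A1, 0.668% for CSNK1A1L, 5.02% for CSNK1D, 11.0% for CSNK1G1, 8.48% for CSNK1G2 and 16.4% for CSNK1G3. Adjacent pairs in the order without overlap numbered 5, and 5 to 6 with a library left out, being 6 without replicate 3 of either treatment.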
